A study of Mus musculus with 4 samples.

Results

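The 8 genes described here encode enzymes of cholesterol synthesis: Hmgcs1, Mvd, Idi1, Fdps, Fdft1, Sqle, Lss and Cyp51. They were chosen by symbol, and all 8 were found among the 23238 gene symbols of the count tables and among the 11464 genes with enough counts to be tested. The series compared mouse CD4+ T cells of wild-type mice with those of mice lacking Pdk4, both of the C57BL/6j strain, with 2 libraries of each genotype. In both groups naive cells taken from spleen and lymph nodes were held for 48 hours with CD3 and CD28 stimulation and IL-2, so no unstimulated cells are compared here. The extent of the Pdk4 deletion, whether it is limited to T cells and whether the libraries of a genotype came from separate mice are not stated in the labels, and p-values therefore cover only the variation among these 4 libraries, part of which may be technical. Libraries were made with a kit that reads the 3' end of a transcript, so a count stands for transcripts and not for their length.

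Cholesterol is built from cytosolic acetyl-CoA. Hmgcs1 makes HMG-CoA, which is reduced to mevalonate; Mvd and Idi1 turn the phosphorylated mevalonate into the active isoprenoid units, and Fdps joins these into farnesyl diphosphate, which also feeds protein prenylation, dolichol and ubiquinone. Fdft1 (squalene synthase) commits farnesyl diphosphate to sterols, Sqle adds oxygen to squalene, Lss closes the ring to lanosterol, and Cyp51 starts the trimming of lanosterol towards cholesterol. The genes are textbook targets of SREBP2, a membrane-bound factor that is cut and released when sterols are low, and activated T cells are known to raise the pathway as they grow and divide. Pdk4 encodes a kinase that restrains pyruvate dehydrogenase, which makes the mitochondrial acetyl-CoA from which citrate for the cytosol is formed.

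The promoters show what the members share in sequence beyond their role. RefSeq promoter windows on GRCm38.p6, running from 250 bases before to 50 bases after the start and 300 bases long, were at hand for 5 of the 8 members: Hmgcs1, Mvd, Idi1, Lss and Cyp51. The windows of 3 members are printed below from 150 bases before the start up to it, on the gene's own strand. Hmgcs1 is printed because it held the sole match to the sterol response element core, and Mvd and Lss as examples with NF-Y boxes. Idi1 and Cyp51, which are not printed, had NF-Y boxes nearer to the start than Lss. Capitals mark TCACNCCAC (the sterol response element core) and CCAAT (the NF-Y box, ATTGG when it lies on the other strand).
Hmgcs1, chr13:119690201-119690350, plus strand: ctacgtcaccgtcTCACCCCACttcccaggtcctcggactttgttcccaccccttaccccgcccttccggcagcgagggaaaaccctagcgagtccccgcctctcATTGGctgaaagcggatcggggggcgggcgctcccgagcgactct
Mvd, chr8:122443423-122443572, minus strand: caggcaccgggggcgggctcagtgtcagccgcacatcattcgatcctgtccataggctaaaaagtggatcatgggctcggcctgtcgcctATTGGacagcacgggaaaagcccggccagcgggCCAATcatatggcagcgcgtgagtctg
Lss, chr10:76531455-76531604, plus strand: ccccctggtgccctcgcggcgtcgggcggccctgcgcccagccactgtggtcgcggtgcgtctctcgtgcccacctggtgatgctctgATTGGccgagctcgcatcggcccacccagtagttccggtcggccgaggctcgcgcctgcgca
On either strand of the whole windows, CCAAT was in 5 of 5 members' promoters against 37.4% of all 32851 promoters of the table, and the Sp1 box GGGCGG was in 5 of 5 against 35.7%. The core TCACNCCAC was in 1 of 5, Hmgcs1, with its first base 137 bases before the start, against 1.24% of all promoters. The E-box CACGTG was in 0 of 5 members' windows and in 7.15% of all. Counted by the leftmost base, NF-Y boxes lay 45 bases before the start in Hmgcs1 and also in Idi1, which had a further one at 14, and at 60 and 27 in Mvd, 62 in Lss and 29 in Cyp51. Hmgcs1 had 4 NF-Y boxes in its window and Lss and Cyp51 had 1 each. The further boxes of Hmgcs1 lay 237 and 176 bases before the start and at base 11 counted from the start. A match is a description of letters, not of a bound site. Only this 1 spelling of the sterol response element was searched, so a window without a match may still hold a variant of it.

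The 4 libraries held between 8837810 and 9739624 counts, so that 3 counts, the limit that a count of 0 allows, corresponded to 0.307 to 0.341 CPM (counts per 1000000 counts of a library, here scaled by edgeR's TMM factors). This limit covers counting error only. Pdk4 had 1 and 0 counts in wild type against 0 and 2 in knockout, so it was at or under that limit in all libraries, and these counts check nothing about the labels. T cell identity genes were plentiful, with Cd4 at 251 and 254 CPM in wild type against 269 and 250 in knockout. The 8 T cell markers summed to 2133 and 2199 CPM in wild type against 2161 and 2207 in knockout, and 1 of them, Cd5, rose (log2 fold change 0.29, adjusted p = 0.0341). Markers of B cells moved with genotype: 9 of 11 tested B cell markers fell, against 1.21% of all tested genes, with a median log2 fold change of -2.52. The 12 listed summed to 217 and 253 CPM in wild type against 113 and 128 in knockout, with Pax5 at 0 in every library. Most of the knockout sum was Cd74, which did not fall, at 85.8 and 119 CPM in wild type against 86.9 and 101 in knockout (adjusted p = 0.734). Of 9 tested CD8 T and NK markers 1, Gzma, fell, and the 10 listed summed to 420 and 434 CPM in wild type against 269 and 253 in knockout. Most of that difference lay in Gzma, at 219 and 219 against 76.1 and 51.2 CPM. The other 9 summed to 200.1 and 215 against 193 and 202. Of the 9 tested CD8 T and NK markers, 3 had an unadjusted p under 0.05, against 13.5% of all tested genes. These were Gzma, Klrb1c (3.52 and 4.86 CPM against 1.12 and 0.761, adjusted p = 0.0887) and Cd8a (2.61 and 2.96 against 0.409 and 0.544, adjusted p = 0.119). Among these 9 tested CD8 T and NK markers only Eomes had a fitted log2 fold change above 0, at 0.24. Myeloid markers summed to between 2.25 and 6.96 CPM, with Mpo at 0, and 0 of 2 tested passed (0 at an unadjusted p under 0.05). The part of these other cells in the values below was not tested.

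All 8 enzymes were expressed in both genotypes, and none passed the genotype test. Their levels covered a wide range, from 7.76 to 9.32 CPM for Idi1 to 95.7 to 118 CPM for Hmgcs1 over the 4 libraries. Of the 8, 6 had a lower fitted level in the knockout, and the clearest difference was in Fdps, at 73.9% of wild type (95% interval 61.0% to 89.6%, n = 2 each), which did not hold after adjustment over all genes. By the quasi-likelihood F test of edgeR, with p-values adjusted over all genes, 0 of 8 members rose and 0 fell, against 2.66% of all tested genes called in either direction, 1.45% upward and 1.21% downward. Those were 305 genes in all, and the number called was 184 when wild-type replicate 2 was left out and 170 when knockout replicate 1 was. By DESeq2 and by limma-voom 0 of 8 passed too. At an unadjusted p under 0.05, 1 member passed, against 13.5% of all genes. Fitted log2 fold changes (knockout minus wild type) ran from -0.44 to 0.08 with a median of -0.15, against a median of 0.00 over all tested genes, 49.9% of which had a value below 0. In bulk RNA, fewer cells of a type and less RNA per cell cannot be told apart.

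**Figure D1:**
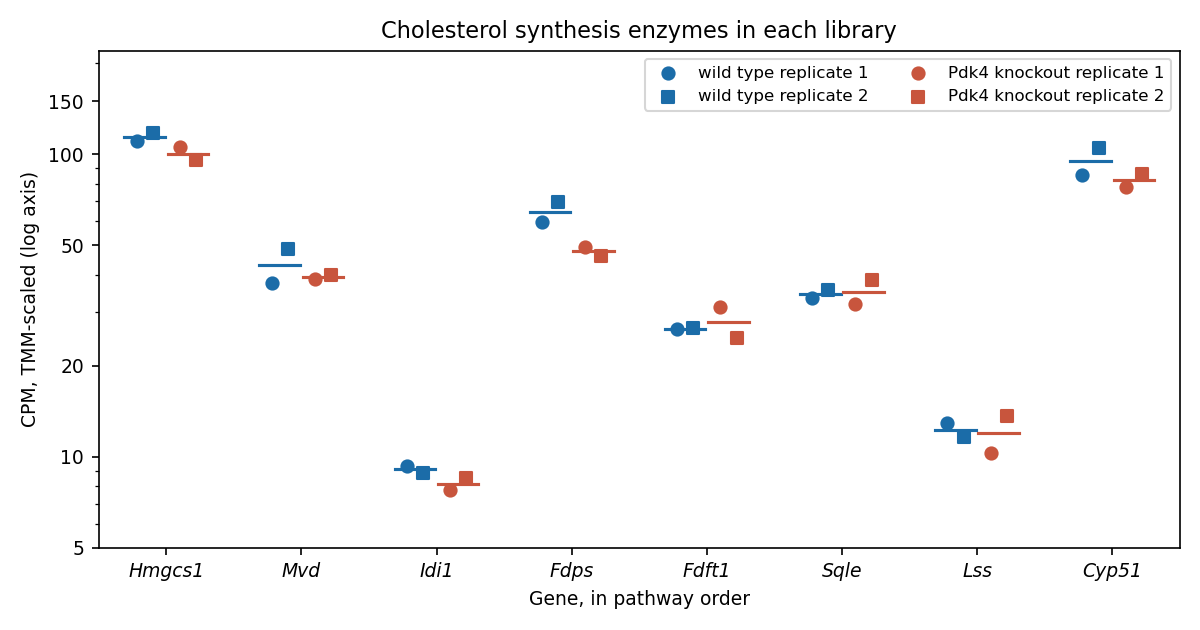
Level of each enzyme in each library, in TMM-scaled CPM on a log axis, with genes in pathway order; circles and squares are replicates 1 and 2, and lines are the means of the 2 libraries of a genotype. Both knockout points lie below both wild-type points for Hmgcs1, Idi1 and Fdps, and the points overlap for the other 5 genes.

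The 4 enzymes up to farnesyl diphosphate all had a lower fitted level in the knockout, though Mvd did not when wild-type replicate 2 was left out (log2 fold change 0.064), and of these 0 passed the test. Hmgcs1 (chromosome 13, 119690379 to 119708260, plus strand, GRCm38) had 110 and 118 CPM in wild type (replicates 1 and 2, as throughout), and the knockout had 105 and 95.7. Both knockout libraries were thus below both wild-type libraries, by a gap narrower than that within either pair. The log2 fold change was -0.18 (SE 0.106, 95% interval -0.40 to 0.03, adjusted p = 0.473). Mvd, the decarboxylase that yields isopentenyl diphosphate (chromosome 8, 122433601 to 122443422, minus strand), stood at 37.6 and 48.7 CPM in wild type against 38.7 and 40.0 in knockout. The wild-type pair enclosed both knockout values, and its own gap was the larger. The log2 fold change was -0.13 (95% interval -0.46 to 0.19, adjusted p = 0.796). Idi1, the isomerase that interconverts the isoprenoid units (chromosome 13, 8885501 to 8892451, plus strand), had the lowest level of the 8, at 9.32 and 8.87 CPM in wild type against 7.76 and 8.48 in knockout. These rest on 76 to 84 counts per library, and although the genotypes do not overlap, the counting interval of the lowest library (6.12 to 9.72 CPM, exact Poisson, 95%) took in every other value. Such an interval covers counting error only, whereas the 95% intervals of fold changes come from the fit and include the spread between libraries. The log2 fold change was -0.16 (95% interval -0.82 to 0.49, adjusted p = 0.898).

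Fdps, the branch point between sterols and the other isoprenoids (chromosome 3, 89093588 to 89101959, minus strand), was at 59.5 and 69.7 CPM in wild type against 49.6 and 46.0 in knockout. Every knockout value was under every wild-type value, with a gap between genotypes about as wide as that between the wild-type libraries. The log2 fold change was -0.44 (SE 0.136, 95% interval -0.71 to -0.16), with an unadjusted p of 0.00314, rank 411 among 11464 genes, and an adjusted p of 0.0874. Of all tested genes, 9.55% had a lower log2 fold change than Fdps. Its value ran from -0.54 without wild-type replicate 1 to -0.32 without wild-type replicate 2 (adjusted p = 0.0545 to 0.537 over 13 alternatives, past the threshold in 0).

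The enzymes from squalene synthase onward had fitted levels on both sides of 0. Fdft1 (chromosome 14, 63145150 to 63179578, minus strand) was at 26.4 and 26.6 CPM in wild type against 31.3 and 24.7 in knockout. The knockout libraries lay on either side of the wild-type pair, which differed from each other by less than 1 CPM. The log2 fold change was 0.08 (95% interval -0.30 to 0.46, adjusted p = 0.918). Sqle, a rate-limiting step of the late pathway (chromosome 15, 59315077 to 59331192, plus strand), had 33.4 and 35.5 CPM in wild type against 32.0 and 38.3 in knockout, again with the knockout values outside the wild-type ones on both sides. Its log2 fold change was 0.03 (95% interval -0.31 to 0.37, adjusted p = 0.971). Lss (chromosome 10, 76531588 to 76557138, plus strand) was low, at 13.0 and 11.6 CPM in wild type against 10.3 and 13.6 in knockout. The genotypes overlapped fully, and the log2 fold change was -0.04 (95% interval -0.60 to 0.52, adjusted p = 0.975). For Fdft1, Sqle and Lss the sign turned when single libraries were left out. Cyp51 (chromosome 5, 4081145 to 4104746, minus strand) stood at 85.2 and 105 CPM in wild type against 78.3 and 86.2 in knockout. Wild-type replicate 2 was the high library here, and the other 3 lay within 8 CPM of one another. The log2 fold change was -0.21 (95% interval -0.45 to 0.03, adjusted p = 0.460).

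**Figure D2:**
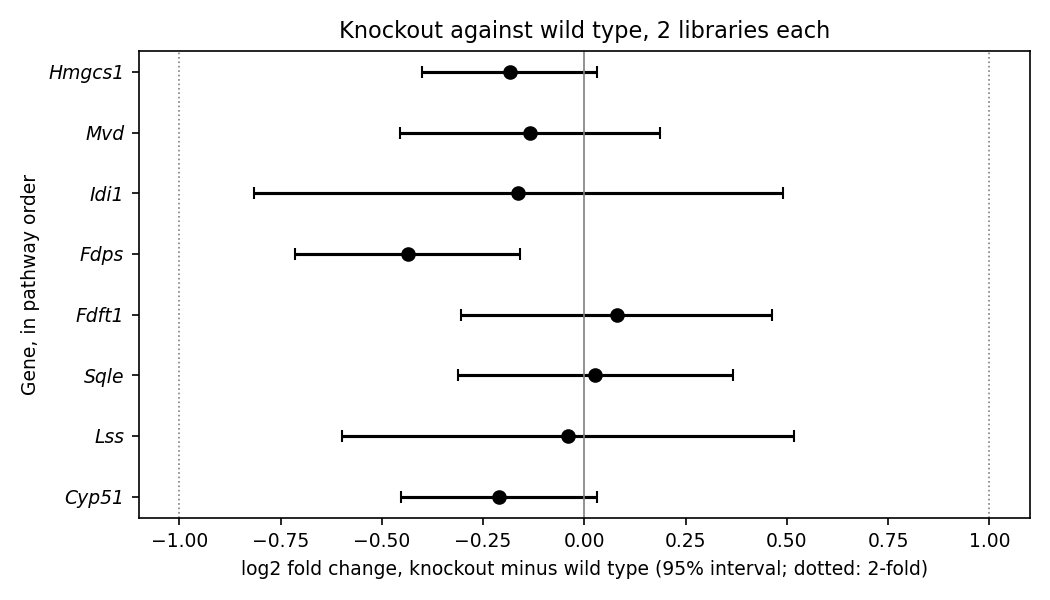
Fitted log2 fold change of each enzyme, knockout minus wild type, with its 95% interval from edgeR's quasi-likelihood fit (2 libraries of each genotype); dotted lines mark a 2-fold change. The interval of Fdps lies below 0, the other 7 cross it, and all 8 stay within the dotted lines.

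A miss of the threshold does not show that levels are equal, and the intervals give the sizes that these libraries leave possible. For all 8 members the 95% interval stayed within a 2-fold change either way, and for 5 it stayed within 1.5-fold. The widest belonged to the genes with fewest counts: Idi1 could lie between 56.8% and 140% of wild type and Lss between 66.0% and 143%. Hmgcs1 lay between 75.8% and 102% and Cyp51 between 73.0% and 102%. Libraries of the genotypes did not overlap for 3 of 8 members, all lower in the knockout, against 43.4% of all tested genes in either direction and 21.9% in that direction.

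Of the 8 members, 5 share their 3' end with another annotated gene, which matters because the use of strand in counting is not given in the sources used here. In GENCODE M21, Fdft1 overlaps the 3' end of Ctsb, a lysosomal protease gene on the other strand, over 774 bases at its own 3' end. Ctsb had 646 and 624 counts in wild type against 618 and 625 in knockout, more than the 227 to 306 of Fdft1, so the value of Fdft1 is uncertain. Cyp51 overlaps Akap9, a scaffold protein gene on the other strand, over 166 bases at its 3' end. Akap9 had 2959 to 3480 counts per library and a log2 fold change of -0.18 (adjusted p = 0.257), so the value of Cyp51 is uncertain as well. Lss lies across from the antisense transcript 4930483K19Rik, which had at most 10 counts in a library. The annotation also has a protein-coding model, Gm43738, on the strand of Fdps over 7512 bases up to its 3' end, and another, Gm20388, across from Mvd over all of its 9822 bases. Neither name is among the gene symbols counted in the series. How reads over these stretches were assigned is not stated, so the values of Fdps and Mvd are uncertain in this respect too.

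Within each library the 8 transcripts kept much the same proportions. Hmgcs1 and Cyp51 together made up 52.2% and 52.6% of the summed level of the 8 in wild type against 52.0% and 51.5% in knockout. Fdps had the share that moved most, at 15.9% and 16.4% in wild type against 14.0% and 13.0% in knockout. Sqle went the other way, at 8.91% and 8.37% against 9.05% and 10.8%. The order of levels was Hmgcs1, Cyp51, Fdps, Mvd, Sqle, Fdft1, Lss and Idi1 in all 4 libraries, for every pair of neighbours in that order. Across libraries, however, the ranges of 3 neighbouring pairs met: Hmgcs1 with Cyp51, Fdps with Mvd, and Mvd with Sqle.

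Summed over the 8, the level was 375 and 424 CPM in wild type against 353.2 and 352.9 in knockout. The knockout libraries were nearly equal, while wild-type replicate 2 stood above wild-type replicate 1 by more than the latter stood above the knockout. The mean in the knockout was 88.4% of that in wild type (399 ± 34.6 and 353 ± 0.222 CPM, SD, n = 2 each). For the 4 enzymes up to Fdps the sum was 217 and 245 CPM in wild type against 201 and 190 in knockout, or 84.7% by the means. For the 4 from Fdft1 on it was 158 and 179 against 152 and 163 CPM, or 93.5%, and there the genotypes overlapped. These sums are descriptions and carry no test.

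**Figure D3:**
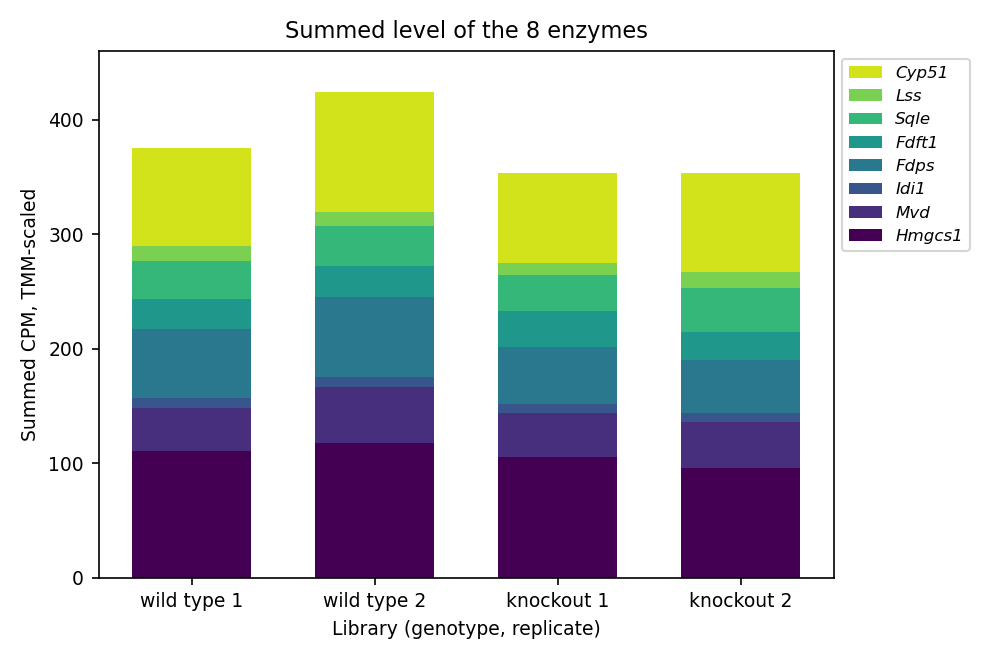
Summed TMM-scaled CPM of the 8 enzymes in each library, with each enzyme as a layer in pathway order from the bottom. The bars reach 375 and 424 CPM in wild type against 353.2 and 352.9 CPM in knockout, and Hmgcs1 and Cyp51 make up the thickest layers in all 4.

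As log2 deviations from each gene's own mean, the average of the 8 members was 0.01 and 0.12 in wild type against -0.09 and -0.04 in knockout, a small range with wild-type replicate 2 at the top. The root mean square difference of a member from this average ran from 0.071 for Idi1 and Hmgcs1 to 0.174 for Fdft1. Genes outside the sterol lists that came near to the average, among 7996 with a mean of at least 10 CPM, were the translation initiation subunit gene Eif3i (0.0049), the ribosomal protein genes Rpl32 (0.0057) and Rps26 (0.0067), and Ccm2 (0.0080). None of these 4 genes passed the test (log2 fold changes -0.13 to -0.14, adjusted p = 0.277 to 0.720). A likeness over 4 libraries with so small a range is a description only.

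Among the other enzymes of sterol synthesis on a list of the pathway, 12 were measured and tested, of which 1 rose, 0 fell and 11 did not pass. Their median log2 fold change was -0.11, and 10 of the 12 had a value below 0, against 49.9% of all tested genes. At an unadjusted p under 0.05, 3 of the 12 passed, against 13.5% of all tested genes. The one that rose was Acat2, the cytosolic thiolase that makes acetoacetyl-CoA, the substrate of Hmgcs1. It was at 141 and 163 CPM in wild type against 200 and 214 in knockout, and the fitted log2 difference was 0.45 (SE 0.0931, adjusted p = 0.00327). Both knockout libraries were well above both wild-type ones. The call was lost when wild-type replicate 1 was left out (adjusted p = 0.0680) and when knockout replicate 2 was (adjusted p = 0.0789).

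The value of Acat2 is uncertain on other grounds. Its neighbour on chromosome 17, Acat3, is a near copy over part of its length. Their longest coding transcripts matched at 97.7% over 1477 bases, from base 74 to base 1550 of the 2250 of Acat2. Closer to the 3' end, where the kit reads, a further match was 80.6% over 227 bases and ended at base 1949. Beyond that base no match was found. Acat3 had 240 and 264 CPM in wild type against 332 and 330 in knockout, a log2 fold change of 0.39 (adjusted p = 0.00258). Acat3 in turn overlaps Tcp1, a chaperonin subunit gene on the other strand, over 1255 bases at the 3' ends of both. Tcp1 had 297 and 325 CPM in wild type against 404 and 410 in knockout, a log2 fold change of 0.39 (adjusted p = 0.00195). All 3 genes were thus higher by similar amounts in the knockout, and how far they share reads was not tested. Acat3 and Tcp1 were looked up after the value of Acat2 was seen.

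Nsdhl, a decarboxylase that acts after Cyp51, had the next smallest p of this list, at 15.5 and 13.1 CPM in wild type against 9.30 and 8.59 in knockout. The genotypes did not overlap, yet the difference did not pass (log2 fold change -0.67, 95% interval -1.24 to -0.10, adjusted p = 0.257).

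Genes that process and regulate SREBP showed 0 rises and 0 falls among 15 tested, with a median log2 fold change of 0.10. Of the 15, 4 had an unadjusted p under 0.05, against 13.5% of all tested genes. DESeq2 and limma-voom called 0 of the 15 too. Rnf139, a ubiquitin ligase of the endoplasmic reticulum membrane, had 33.3 and 30.5 CPM in wild type against 48.5 and 40.1 in knockout (log2 fold change 0.48, adjusted p = 0.128). Mbtps1, the protease that makes the first cut in SREBP, had 76.2 and 78.8 CPM against 86.6 and 98.7 (0.26, adjusted p = 0.312). Both were higher in each knockout library than in either wild-type one. Srebf2, the gene of SREBP2, and Insig1, a SREBP target that holds SREBP in the endoplasmic reticulum, were picked for their role after their values were seen. Srebf2 was at 95.1 and 117 CPM in wild type against 85.2 and 106 in knockout, with overlapping genotypes (-0.15, 95% interval -0.40 to 0.09, adjusted p = 0.645). Insig1 was at 11.4 and 19.0 CPM in wild type against 10.1 and 10.0 in knockout (-0.60, adjusted p = 0.341), where wild-type replicate 2 alone was high.

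**Figure D4:**
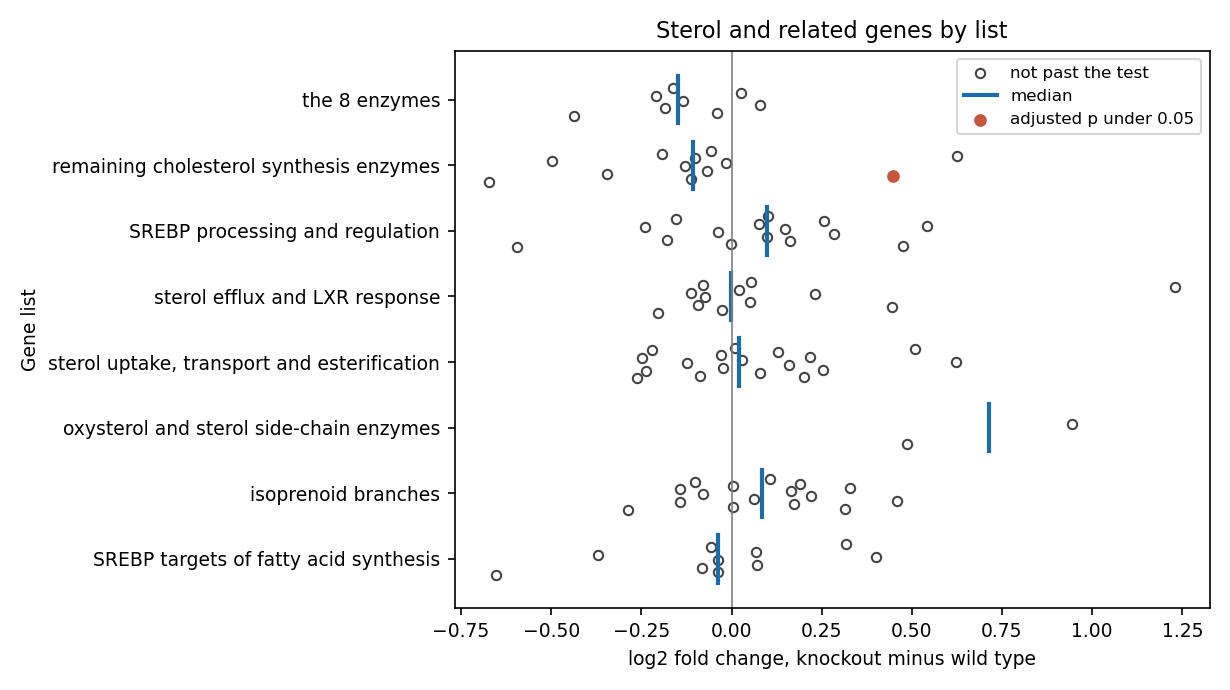
Fitted log2 fold change, knockout minus wild type, of each tested gene of the 8 enzymes and of 7 related lists; filled points have an adjusted p under 0.05, open points do not, and bars are medians. Acat2 is the single filled point, and the medians of all lists but the oxysterol list, which has 2 tested genes, lie between -0.15 and 0.10.

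In the lists around the pathway, 0 genes rose and 0 fell by edgeR, DESeq2 or limma-voom with the main filter on low counts. With no filter edgeR called Acly, lower in the knockout, and Idi2, higher there. With the stricter filter it called Acly. Of 12 genes of sterol efflux and the LXR response the median log2 fold change was 0.00. The sterol sensor Nr1h3 was low, at 0.795 and 0.950 CPM in wild type against 1.43 and 2.72 in knockout (log2 fold change 1.23, adjusted p = 0.562). The genotypes did not overlap, but these levels rest on 7 to 25 counts per library and the difference did not pass the test. No gene of this list had an unadjusted p under 0.05, against 13.5% of all tested genes. Of 18 genes of sterol uptake, transport and esterification the median was 0.02. Against 13.5% of all tested genes, 1 of these 18 had an unadjusted p under 0.05. That was the lipoprotein receptor gene Vldlr, at 11.9 and 9.82 CPM in wild type against 15.8 and 17.6 in knockout (0.62, adjusted p = 0.256), with no overlap between genotypes.

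Oxysterol enzymes were nearly silent. Ch25h, Cyp27a1 and Cyp7b1 had 0 counts in all 4 libraries, which allows up to 0.341 CPM in a single library, and only 2 of the 6 listed were tested. Hsd3b7 was at 1.36 and 2.85 CPM in wild type against 5.11 and 3.04 in knockout (log2 fold change 0.94, adjusted p = 0.527), and Sult2b1 at 1.70 and 2.22 against 4.19 and 1.30 (0.49, adjusted p = 0.833). Neither passed, and for Sult2b1 the genotypes overlapped.

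The isoprenoid branches, which use the product of Fdps, had a median of 0.08 over 16 tested genes. Of these, 0 had an unadjusted p under 0.05, against 13.5% of all tested genes. Dhdds, which makes the dolichol chain, had 33.0 and 28.9 CPM in wild type against 25.2 and 25.4 in knockout (log2 fold change -0.29, adjusted p = 0.530). Icmt, which methylates prenylated proteins, had 24.0 and 17.6 against 24.9 and 26.7 CPM (0.31, adjusted p = 0.553). The genes on this side of the branch point thus lay on both sides of 0. Idi2, a paralog of Idi1 that was too low to be tested, had 4 and 1 counts in wild type against 10 and 47 in knockout, a level that rests on knockout replicate 2. It was named after its values were seen, since it was called in some alternatives.

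Fatty acid synthesis genes that SREBP also drives had a median of -0.04 over 10 tested genes. Of these, 2 had an unadjusted p under 0.05, against 13.5% of all tested genes. Acly, which cleaves citrate to give the cytosolic acetyl-CoA that Acat2 and Hmgcs1 use, had 110 and 116 CPM in wild type against 94.0 and 80.8 in knockout. Both knockout libraries were lower, with a log2 fold change of -0.37 (95% interval -0.60 to -0.15), and the adjusted p was 0.0694. Scd1, a fatty acid desaturase, was at 9.32 and 12.6 CPM in wild type against 6.64 and 7.28 in knockout (-0.65, adjusted p = 0.370). Over all 7 lists together, 1 of 85 tested genes passed, against 2.66% of all genes, and their median log2 fold change was 0.00. Of the 85, 10 had an unadjusted p under 0.05, against 13.5% of all genes.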

How the data were processed

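Values are raw counts as deposited, in a separate table for each library with a row per gene symbol, per the file headers. The submitters' processing notes name Bowtie2, edgeR and mm10 without versions or roles; for the counter, annotation, strand setting and handling of reads with several matches, nothing is given in the sources used here. Libraries were made from 500 ng of total RNA with a Lexogen Quant-Seq kit, per the labels' protocols. Each table had 23282 rows and 23238 symbols, and 35 symbols had several rows, which were added up. After edgeR's filterByExpr, 11464 genes were fitted in edgeR 4.0.16 (R 4.3.3) with TMM scaling (factors 0.989 to 1.01), a two-sided quasi-likelihood F test for genotype over all 4 libraries, and Benjamini-Hochberg adjustment over all 11464; "rose" and "fell" mean an adjusted p under 0.05. The standard error is the log2 fold change over the square root of F, and the 95% interval uses the fit's degrees of freedom. The alternatives used DESeq2 1.42.0, limma 3.58.1, other scalings and filters, a replicate block, and 1 library left out. The test was tested on simulated data. Replicates of a genotype differed beyond counting noise (chi-square per degree of freedom 5.40 and 5.45).

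The members, the 7 related lists and the marker lists were chosen with earlier results of these data known. The rule for named genes took the members, each gene of a list past the test and the 2 of each list with the smallest p, the 5 nearest to the members' average pattern, and Pdk4; 3 genes that it names are not reported here. Markers named come from the marker lists. Genes that overlap or resemble a named one (Ctsb, Akap9, Acat3, Tcp1 and others), with Srebf2, Insig1 and Idi2, stand outside the rule and were chosen after their values were seen. Gene coordinates come from GENCODE M21 (GRCm38, which is mm10), looked up by symbol, and promoter sequences from RefSeq (GRCm38.p6).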

Additional observations from a re-analysis of the deposited data

How the results depend on the processing

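Under all 13 alternatives 0 of the 8 enzymes passed the test, and their log2 fold changes kept their direction in 98 of 104 values. The 6 that turned came from leaving out a library, which gave -0.31 to 0.064 for Mvd, -0.10 to 0.24 for Fdft1, -0.11 to 0.15 for Sqle and -0.25 to 0.15 for Lss, and likewise -0.59 to 1.09 for Sult2b1. The direction of these genes therefore rests on single libraries. Over all genes, 170 to 293 were called when 1 library was left out. Of the related lists, 0 to 2 genes were called with 1 library left out, 3 with no filter on low counts (Acat2, Acly with adjusted p = 0.0461 and Idi2 with 0.0309) and 2 with the stricter filter of 5 CPM in 2 libraries (Acat2, and Acly with 0.0368). With the replicate number as a replicate block, 260 genes were called, 0 of them among the 8, and Fdps had an adjusted p of 0.127. The labels do not say that the numbers pair the libraries, and the differences between replicates 1 and 2 in wild type and in knockout had a correlation of 0.0068 over 11464 genes. Counts of 76 to 125 for Idi1 and Lss limit what can be said of them.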
